A study of Mus musculus with 48 samples.

Results

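The apolipoproteins of plasma lipoproteins were examined in mouse liver through 10 genes: Apoa1, Apoa2, Apoa4, Apoa5, Apob, Apoc1, Apoc2, Apoc3, Apoe and Apom. They were taken by gene symbol alone, and the family was chosen with earlier results of these data known. All 10 of the 10 symbols were found among the 22029 gene names with a tested probe, and they carried 17 probes, 6 of the genes having more than 1. Liver RNA came from 48 male C57Bl6J mice aged 20 weeks, in 6 groups of 8, each mouse on its own single-colour array. Mice of 3 genotypes had eaten a control diet (CTRL) or a high-fat diet with 60% fat (HFD) for 12 weeks according to the sample labels, while the study's methods give another duration: PPARaWT (WT), which carried a functional Ppara gene, PPARaLKO (LKO), which lacked Ppara in hepatocytes only, and PPARaKO (KO), which lacked it in the whole body. The LKO mice carried a floxed exon 4 of Ppara and a Cre recombinase under the albumin promoter, so their other cells kept the gene. By the study's methods all mice were kept at thermoneutrality and sampled fed, and the WT mice were bought from a supplier and were not littermates of the knockouts, so genotype and breeding origin cannot be told apart.

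Apolipoproteins are the protein part of the particles that carry lipid in blood, and the liver is a main source of most of them. Apob is the structural protein of very low density lipoprotein and Apoa1 that of high density lipoprotein (HDL), while the small exchangeable members move between particles and act on lipoprotein lipase, on receptors and on the enzymes that remodel HDL. PPARa, the protein made from Ppara, is a nuclear receptor that fatty acids and fibrate drugs activate, and it binds DNA with RXR at direct repeats of a short hexamer spaced by a single base. The comparisons addressed how the liver transcript of each apolipoprotein differed with the diet in each genotype, with the loss of PPARa from hepatocytes or from the whole body, and whether the diet response differed between genotypes.

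Apoa4 separated the groups most widely of the 10 genes. On HFD its fitted signal was 5.34-fold higher in KO than in WT and 3.13-fold higher in LKO than in WT, and on CTRL it was 2.86-fold and 2.10-fold higher. Apoc2 rose with HFD by 1.86-fold in KO, and Apoa1 and Apoa5 were lower in KO than in WT on CTRL. Apom fell with HFD in WT and in LKO, and Apob rose with HFD in LKO. These calls depended on the processing and passed in 9, 12 and 11 of 15 alternative ways of processing. The brightest probes of Apoa2, Apoc1 and Apoe passed the test in none of the comparisons, and the normalization left them almost no room to vary, as described below.

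Signals are given as log2 of the spot's median intensity after quantile normalization, a step that gives every array the same distribution of values. A change is the difference between groups fitted with limma, with the array wash batch as a term and a weight for each array, and it is given with its standard error (SE) and a p-value adjusted by the Benjamini-Hochberg method over all 33323 tested probes. A gene is said to rise or fall, or to pass the test, at an adjusted p of at most 0.05. Each gene is represented by the probe with its highest mean signal, and levels are compared only within a probe. The p-values measure the spread between mice, 1 array each. In whole liver a lower share of a cell type and less RNA per cell cannot be told apart.

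All 17 probes were well above background on 48 of 48 arrays, and no spot was saturated on any array. Across arrays the median spot intensity lay between 56 and 91 over a median background of 20 to 36. Hepatocyte markers were high in every group, with summed levels of their 9 tested genes between 20.72 and 20.98 on the log2 scale. The brightest of them, Alb (mean log2 signal 18.9), has little room to vary under the normalization, so this narrow range does not measure the share of hepatocytes. The targeted gene was read by 2 Ppara probes whose place relative to the deleted exon was not established. The mean signal of the brighter Ppara probe was 14.57 ± 0.31 (SD, n = 8) in WT on CTRL, 14.03 ± 0.33 in LKO on CTRL and 13.89 ± 0.19 in KO on CTRL, and 15.02 ± 0.25, 14.27 ± 0.14 and 14.03 ± 0.13 on HFD. On the other Ppara probe it was 12.88 ± 0.27 in WT, 12.66 ± 0.38 in LKO and 11.73 ± 0.19 in KO on CTRL, and 13.29 ± 0.23, 12.68 ± 0.09 and 12.07 ± 0.13 on HFD. Group means were thus lower in both knockouts than in WT, though LKO on CTRL lay within 1 SD of WT on the second probe, and the KO against WT change of the brighter probe was -1.08 on HFD (limma, adjusted p = 2.77e-14).

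The promoters of 4 members whose transcripts differed between groups are printed here, so that they can be read beside the values that follow. Each line gives the 250 bases before the annotated start site on the gene's strand, from RefSeq on build GRCm38.p6. The windows were scanned on both strands for AGGTCA, any 1 base, AGGTCA, the direct repeat that PPARa with RXR is known for, and capitals mark a match with at most 3 mismatches of the 12 compared bases. The windows lie at chr9:46240594-46240843 on the plus strand for Apoa4, chr7:19677942-19678191 on the minus strand for Apoc2, chr9:46228380-46228629 on the plus strand for Apoa1 and chr17:35131802-35132051 on the minus strand for Apom.
Apoa4: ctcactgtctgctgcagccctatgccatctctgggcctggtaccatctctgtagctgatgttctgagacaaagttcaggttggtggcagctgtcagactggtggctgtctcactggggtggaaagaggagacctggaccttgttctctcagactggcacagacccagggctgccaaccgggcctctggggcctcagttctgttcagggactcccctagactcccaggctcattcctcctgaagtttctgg
Apoc2: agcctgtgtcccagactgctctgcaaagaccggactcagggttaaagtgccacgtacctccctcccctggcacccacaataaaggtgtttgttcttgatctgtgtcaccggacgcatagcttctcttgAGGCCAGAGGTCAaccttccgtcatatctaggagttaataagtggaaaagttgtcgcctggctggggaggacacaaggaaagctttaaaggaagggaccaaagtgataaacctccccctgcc
Apoa1: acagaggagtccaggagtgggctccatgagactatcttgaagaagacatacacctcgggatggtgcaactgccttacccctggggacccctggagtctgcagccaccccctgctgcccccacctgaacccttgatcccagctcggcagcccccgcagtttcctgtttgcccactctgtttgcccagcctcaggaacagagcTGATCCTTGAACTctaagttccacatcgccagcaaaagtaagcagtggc
Apom: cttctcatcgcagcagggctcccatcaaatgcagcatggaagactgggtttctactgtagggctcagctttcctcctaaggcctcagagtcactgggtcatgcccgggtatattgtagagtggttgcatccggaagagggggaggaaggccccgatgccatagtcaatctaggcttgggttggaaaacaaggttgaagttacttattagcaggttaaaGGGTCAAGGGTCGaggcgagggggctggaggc

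Apoc2 held the closest match, with 1 mismatch, at bases -122 to -110 from its start. Of 32851 windows of 300 bases around annotated starts, 0.554% held a match with at most 1 mismatch. Apoa1 and Apom each matched with 3 mismatches, which 24.6% of windows held. Among the windows not printed, an Apoa2 window matched with 2 mismatches at bases -63 to -51, against 3.86% of windows, and an Apoe window matched with 3. No match was found in the windows of Apoa4, Apoa5 or Apob, which says only that these letters are not in them. Windows were at hand for 8 of the 10 genes, and 5 of them held a match. A match is a similarity of letters and not a measured binding site. Array positions below are on build mm9, as in the array files, and do not share coordinates with these windows.

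Apoa4 encodes a lipid-binding protein of chylomicrons and HDL, made mainly in the intestine and also in liver. Its probe lies at chr9:46051206-46051266. In WT its log2 signal ran from 14.96 over a median of 15.36 to 16.89 on CTRL, and from 14.21 over 15.63 to 16.85 on HFD. LKO livers ran from 15.28 over 16.73 to 17.34 on CTRL, and from 16.82 over 17.10 to 17.64 on HFD. KO livers ran from 16.68 over 16.90 to 17.40 on CTRL, and from 17.74 over 18.00 to 18.31 on HFD. The lowest KO liver on HFD was thus above the highest liver of every other group, while WT livers spread over more than 2 log2 units on HFD. In order of mean level the groups ran KO on HFD, LKO on HFD, KO on CTRL, LKO on CTRL, WT on CTRL and WT on HFD. KO on HFD lay 3.01 pooled SD above LKO on HFD, LKO on CTRL lay 1.43 pooled SD above WT on CTRL, and the other neighbours differed by less than 1 pooled SD.

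The loss of PPARa went with higher Apoa4 signal on each diet. KO exceeded WT by 1.52 (SE 0.27, adjusted p = 1.78e-05) on CTRL and by 2.42 (SE 0.23, adjusted p = 1.1e-11) on HFD. LKO exceeded WT by 1.07 (SE 0.26, adjusted p = 0.00186) on CTRL and by 1.65 (SE 0.24, adjusted p = 1.09e-06) on HFD. These differences share the WT livers. KO exceeded LKO by 0.77 (SE 0.22, adjusted p = 0.00574) on HFD, with no overlap (0.84 within the second wash batch, where it did not pass, adjusted p = 0.114), whereas on CTRL the difference of 0.44 did not pass (adjusted p = 0.194, 95% interval -0.05 to 0.94). Within the first and the second wash batch, the KO against WT change of Apoa4 on HFD was 2.32 and 2.46, and both passed. The LKO against WT change on CTRL was 0.71 in the first batch, where it did not pass (adjusted p = 0.111), and 1.41 in the second.

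HFD raised Apoa4 in KO by 1.12 (SE 0.24, adjusted p = 5.76e-04) and in LKO by 0.80 (SE 0.23, adjusted p = 0.0106). In WT the change was 0.22 (SE 0.27, adjusted p = 0.641, 95% interval -0.32 to 0.77). The difference between the diet responses of KO and WT was 0.90 (SE 0.36) and did not pass the test (adjusted p = 0.0823), nor did that between LKO and WT, at 0.57 (adjusted p = 0.3). The first passed without replicate 3 or 8 of WT on HFD (1.074 and 1.096). The LKO diet call passed in 10 of 15 alternatives, with a lowest value of 0.54. It was lost without replicate 4 of LKO on CTRL (0.66, adjusted p = 0.0596), without replicate 6 of LKO on HFD (0.68, adjusted p = 0.0619) and, among the alternatives, without array weights (0.64, adjusted p = 0.254). Within the first and the second wash batch the LKO response was 1.02 and 0.64, and the KO response 1.158 and 1.104, of which those in the second batch did not pass (adjusted p = 0.325 and 0.0604).

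**Figure D1:**
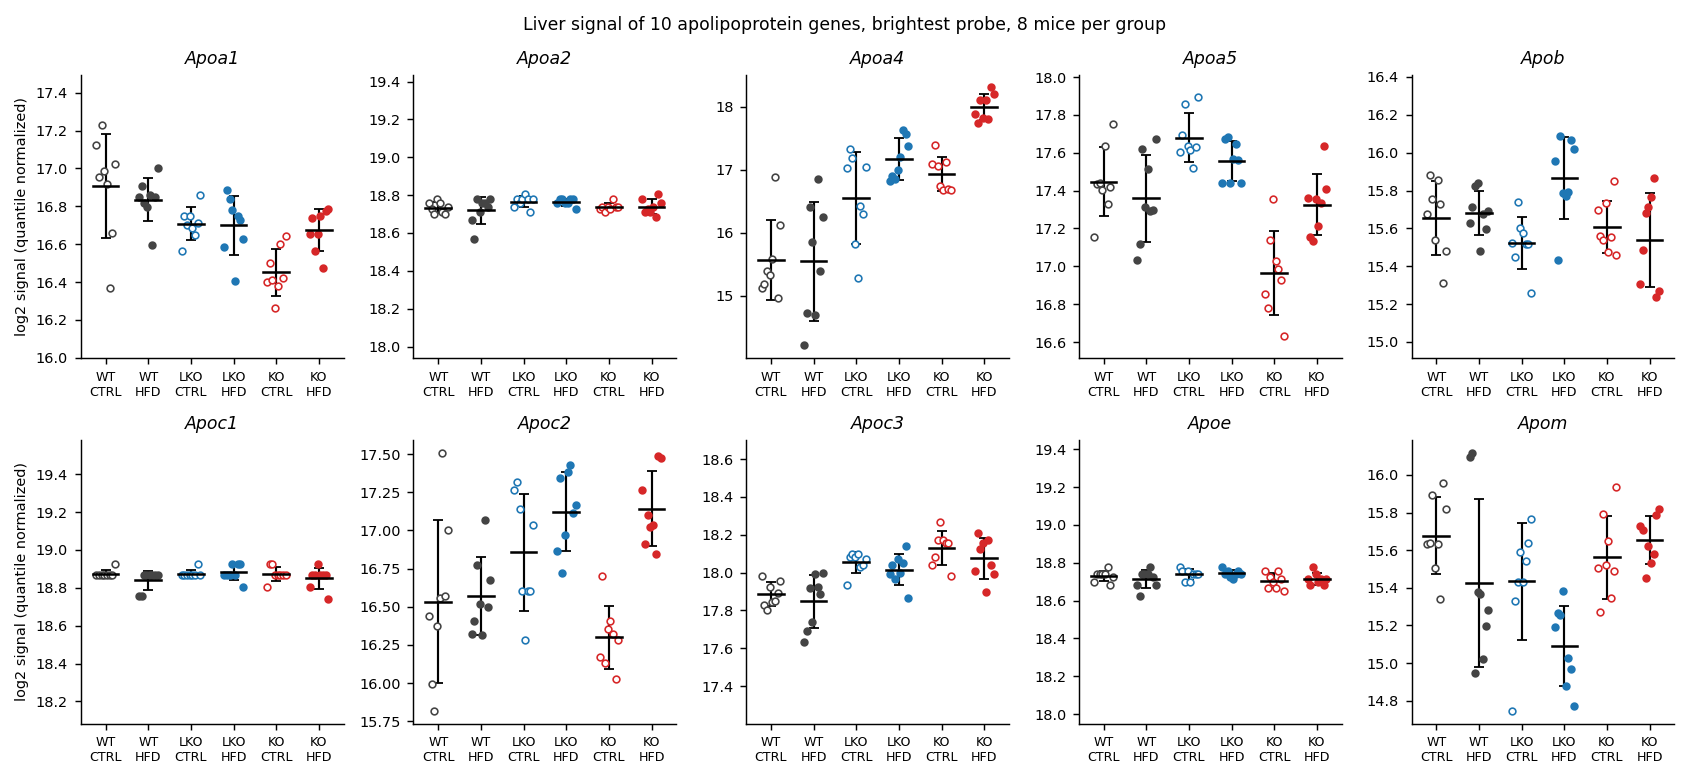
Quantile-normalized log2 signal (vertical axis, a separate range for each gene) of the brightest probe of each of the 10 genes in the 6 groups. Each point is 1 liver (open, CTRL; filled, HFD), the bar is the group mean and the whiskers are 1 SD over 8 livers. Apoa4 in KO on HFD lay between 17.74 and 18.31, above all other groups, and Apoa2, Apoc1 and Apoe barely moved.

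3 members act on lipoprotein lipase, the enzyme that removes triglyceride from circulating particles: Apoc2 is its required cofactor, Apoc3 inhibits it, and Apoa5 promotes triglyceride clearance at the vessel wall. Apoc2 was read at chr7:20257027-20257086. In WT its log2 signal ran from 15.82 over a median of 16.50 to 17.51 on CTRL, and from 16.31 over 16.51 to 17.07 on HFD. The LKO values ran from 16.28 over 16.82 to 17.32 on CTRL, and from 16.72 over 17.14 to 17.43 on HFD. The KO values ran from 16.03 over 16.30 to 16.70 on CTRL, and from 16.84 over 17.07 to 17.49 on HFD. KO livers on CTRL were the lowest group by mean and KO livers on HFD the highest, without overlap between them. KO on HFD and LKO on HFD differed by 0.08 pooled SD, and no neighbouring groups in the order differed by 1 pooled SD.

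Apoc2 rose with HFD in KO by 0.90 (SE 0.12, adjusted p = 1.46e-06; 0.56 with the 75th percentile, adjusted p = 8.04e-05) and in LKO by 0.42 (SE 0.12, adjusted p = 0.00871). In WT the change was 0.15 (SE 0.14, adjusted p = 0.523). The response in KO exceeded that in WT by 0.75 (SE 0.18, adjusted p = 0.00485), though within the first wash batch alone this difference was 0.36 (adjusted p = 0.367) and within the second 1.05 (adjusted p = 0.035). The LKO response passed in 8 of 15 alternatives: it was 0.31 without array weights (adjusted p = 0.332), 0.25 with median centring (adjusted p = 0.0561) and 0.22 with both (adjusted p = 0.396). A second probe of Apoc2, at chr7:20258597-20258656, gave 0.86 in KO, 0.57 in LKO and 0.12 in WT, of which the first passed in 14 and the second in 11 of 14 alternatives, the second with a lowest value of 0.33. On the brighter Apoc2 probe the responses of KO and LKO differed by 0.48, which did not pass (adjusted p = 0.114) but did without replicate 5 of LKO on CTRL (0.56, adjusted p = 0.04).

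Between genotypes, Apoc2 on HFD was higher than in WT by 0.64 in KO (SE 0.12, adjusted p = 2.5e-05) and by 0.64 in LKO (SE 0.12, adjusted p = 1.03e-04). The KO value was 0.40 with the 75th percentile, where it passed (adjusted p = 7.18e-04), and the LKO value was 0.42 within the first wash batch, where it did not (adjusted p = 0.102). KO and LKO on HFD differed by -0.001 (95% interval -0.23 to 0.23, adjusted p = 0.996). The second Apoc2 probe gave -0.24 for that comparison (adjusted p = 0.112), which passed without replicate 1 of LKO on HFD (-0.30, adjusted p = 0.0433) and with the 75th percentile (-0.25). On CTRL, Apoc2 was lower in KO than in LKO by 0.48 on the log2 scale (SE 0.13, adjusted p = 0.00343; not passing within the first wash batch, adjusted p = 0.19), and the KO against WT change of -0.11 did not pass (adjusted p = 0.584). The LKO against WT change on CTRL was 0.36 (adjusted p = 0.0395) and passed in 8 of 15 alternatives. It was lost without any of 8 livers: replicates 1, 2, 3 and 5 of WT on CTRL gave 0.34, 0.30, 0.29 and 0.35, and replicates 1, 2, 3 and 8 of LKO on CTRL gave 0.35, 0.29, 0.34 and 0.33.

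Apoc3 has 3 probes, whose differences between groups varied in size. On the brightest, at chr9:46041134-46041193, the log2 signal in WT ran from 17.80 over a median of 17.87 to 17.98 on CTRL, and from 17.64 over 17.90 to 18.00 on HFD. In LKO it ran from 17.93 over 18.08 to 18.10 on CTRL, and from 17.86 over 18.02 to 18.14 on HFD. In KO it ran from 17.98 over 18.16 to 18.27 on CTRL, and from 17.90 over 18.08 to 18.21 on HFD. Every group overlapped its neighbours in the order of means, in which LKO on HFD and WT on CTRL lay 1.77 pooled SD apart and the others by less than 1. KO exceeded WT by 0.25 on CTRL (SE 0.05, adjusted p = 2.6e-04; 0.47 for the mean of the 3 probes) and by 0.17 on HFD (SE 0.05, adjusted p = 0.00191). LKO exceeded WT by 0.18 on CTRL (adjusted p = 0.00607) and by 0.13 on HFD (adjusted p = 0.0332), which passed in 10 and in 7 of 15 alternatives. The LKO difference on CTRL was 0.13 with median centring (adjusted p = 0.245), 0.11 with the 75th percentile (adjusted p = 0.409) and at its lowest 0.08, and it passed within neither wash batch. In the second wash batch alone, KO against WT gave 0.17 on CTRL (adjusted p = 0.106) and 0.06 on HFD (adjusted p = 0.418), against 0.35 and 0.32 in the first. The changes on HFD turned to -0.06 in KO and -0.02 in LKO when arrays were centred on their medians in place of quantile normalization. The LKO change on HFD was also lost without replicate 1, 2, 4 or 7 of WT on HFD (0.107, 0.114, 0.105 and 0.126) or replicate 6 or 7 of LKO on HFD (0.114 and 0.110).

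A second Apoc3 probe, at chr9:46041353-46041412, gave wider differences. Its log2 signal in WT ran from 16.84 over a median of 17.02 to 17.19 on CTRL and from 16.75 over 17.08 to 17.16 on HFD. KO livers ran from 17.37 over 17.49 to 17.75 on CTRL and from 17.31 over 17.49 to 17.80 on HFD. KO and WT livers did not overlap on either diet. KO exceeded WT by 0.51 on CTRL (SE 0.06, adjusted p = 4.58e-09) and by 0.45 on HFD (SE 0.05, adjusted p = 1.19e-09, 0.16 with adjusted p = 0.0623 with Agilent's processed signal and 75th percentile scaling). The diet passed the test for neither of these probes in any genotype, although with median centring the HFD change in KO was -0.32 for the brightest Apoc3 probe and -0.34 for the second (adjusted p = 8.72e-04 and 4.25e-04). The third and far dimmer Apoc3 probe, at chr9:46043606-46043665, also stood higher in KO than in WT on CTRL, by 0.66 (SE 0.11, adjusted p = 3.42e-06), and it fell with HFD in KO by 0.54 on the log2 scale (SE 0.09, adjusted p = 6.07e-05).

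Apoa5 was read at chr9:46079431-46079490. In WT its log2 signal ran from 17.16 over a median of 17.43 to 17.75 on CTRL, and from 17.03 over 17.31 to 17.67 on HFD. LKO livers ran from 17.52 over 17.63 to 17.89 on CTRL, and from 17.44 over 17.56 to 17.68 on HFD. The KO values ran from 16.63 over 16.96 to 17.35 on CTRL, and from 17.13 over 17.35 to 17.63 on HFD. KO livers on CTRL lay below all LKO livers on CTRL, and WT livers lay between them with overlap. Of the neighbours in order of mean, LKO on CTRL and LKO on HFD differed by 1.04 pooled SD, KO on HFD and KO on CTRL by 1.87, and the others by less than 1.

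On CTRL, Apoa5 was lower in KO than in LKO by 0.71 on the log2 scale (SE 0.08, adjusted p = 5.24e-09) and lower than in WT by 0.48 (SE 0.09, adjusted p = 8.24e-05). On HFD the KO against LKO change was -0.23 (SE 0.08, adjusted p = 0.02), lost without replicate 3 or 5 of KO on HFD (-0.19 and -0.20) or replicate 6 of LKO on HFD (-0.21). It passed in 12 of 15 alternatives and was -0.14 within the second wash batch (adjusted p = 0.463). The KO against WT change on HFD was -0.08 (adjusted p = 0.414, but -0.32 with adjusted p = 0.00185 with median centring). LKO exceeded WT on CTRL by 0.24 at an adjusted p of 0.05, and this call held in 13 of 48 fits that each left out 1 liver, with values from 0.169 to 0.276, and in 5 of 15 alternatives. A dimmer Apoa5 probe gave -0.70 for KO against LKO and -0.41 for KO against WT on CTRL, and both passed, the second in 12 of 14 alternatives with -0.22 as the value nearest 0.

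HFD raised Apoa5 in KO by 0.39 (SE 0.08, adjusted p = 6.65e-04), with -0.10 in LKO and -0.01 in WT, neither of which passed. The response in KO exceeded that in LKO by 0.49 (adjusted p = 0.011) and that in WT by 0.39 (adjusted p = 0.0282), which passed in 8 and 9 of 15 alternatives, with lowest values of 0.23 and -0.01. These diet responses of Apoa5 depended on the scaling: the KO response was 0.08 with median centring and -0.01 with the 75th percentile, and it was 0.12 within the first wash batch (adjusted p = 0.372) and 0.63 within the second (adjusted p = 0.00296). On the dimmer Apoa5 probe the response in KO exceeded that in LKO by 0.34 (adjusted p = 0.221) and that in WT by 0.26 (adjusted p = 0.293), and neither passed there or in any of the 14 alternatives that could be fitted for it. On the brighter probe the difference from WT was lost without replicate 7 of WT on HFD (0.37) or replicate 7 of KO on HFD (0.32).

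**Figure D2:**
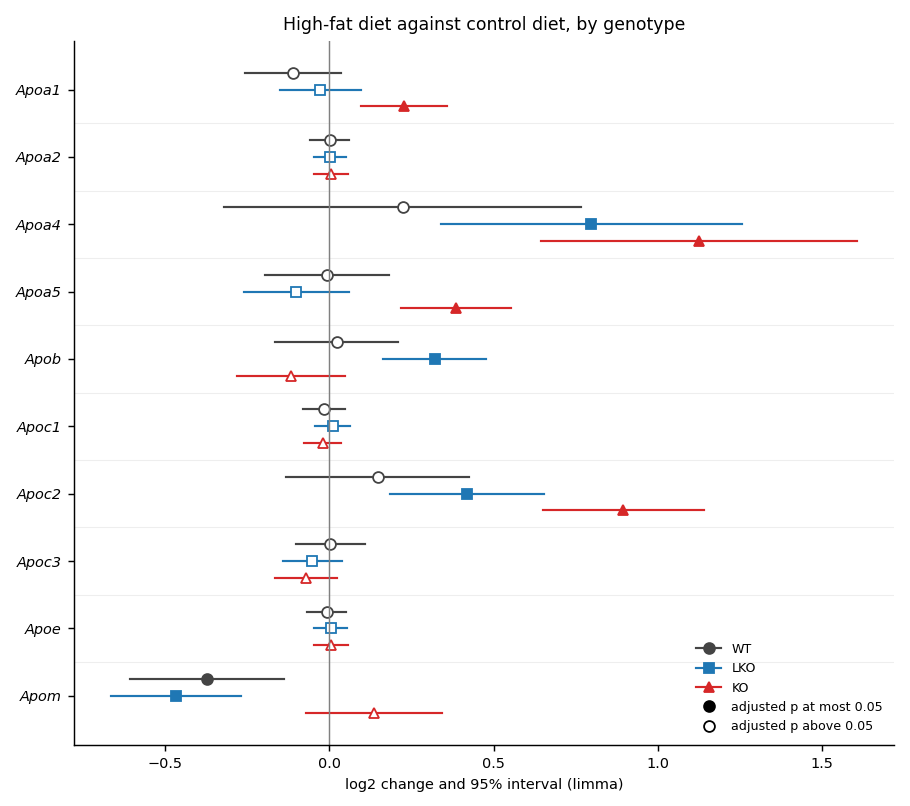
Log2 change from CTRL to HFD (horizontal axis) with its 95% interval from limma, for the brightest probe of each gene in WT (circles), LKO (squares) and KO (triangles). Filled symbols have an adjusted p of at most 0.05. The widest responses were those of Apoa4 (1.12) and Apoc2 (0.90) in KO, and Apom fell in WT and LKO but not in KO.

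Apoa1, Apoa2 and Apom are proteins of HDL: Apoa1 builds the particle and activates the enzyme that esterifies its cholesterol, Apoa2 is its second main protein, and Apom carries sphingosine-1-phosphate on it. Apoa1 was read at chr9:46037921-46037980. In WT its log2 signal ran from 16.37 over a median of 16.97 to 17.23 on CTRL, and from 16.60 over 16.85 to 17.004 on HFD. The LKO values ran from 16.56 over 16.71 to 16.86 on CTRL, and from 16.41 over 16.74 to 16.89 on HFD. In KO it ran from 16.26 over 16.42 to 16.64 on CTRL, and from 16.47 over 16.70 to 16.79 on HFD. The lowest mean was that of KO on CTRL, and 1 low WT liver on CTRL kept that group from standing clear of it. In order of mean, KO on HFD and KO on CTRL differed by 1.89 pooled SD, WT on HFD and LKO on CTRL by 1.26, and the other neighbours by less than 1.

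Apoa1 was lower in KO than in WT by 0.51 on CTRL on the log2 scale (SE 0.07, adjusted p = 2.55e-07), and lower than in LKO by 0.26 (SE 0.07, adjusted p = 0.00254). LKO was lower than WT by 0.25 on CTRL (SE 0.07, adjusted p = 0.0059). The KO against LKO change on CTRL passed in 12 of 15 alternatives, from -0.36 to -0.14, and the LKO against WT change in 10 of 15, from -0.30 to -0.18. On HFD the changes against WT were -0.18 in KO (adjusted p = 0.0205) and -0.17 in LKO (adjusted p = 0.0398), which passed in 9 and 7 of 15 alternatives and ranged from -0.39 to -0.11 and from -0.38 to -0.12. The first was lost without replicate 8 of WT on HFD (-0.143). The other was lost without any of 8 livers, replicates 4, 5, 7 and 8 of WT on HFD (-0.175, -0.177, -0.167 and -0.141) and replicates 1, 5, 6 and 8 of LKO on HFD (-0.161, -0.115, -0.179 and -0.165). Apoa1 rose with HFD in KO by 0.23 (SE 0.06, adjusted p = 0.00774), but this became 0.03 with median centring and -0.05 with the 75th percentile. The response in KO exceeded that in WT by 0.34 (adjusted p = 0.0155), which passed in 8 of 15 alternatives, with values from 0.07 to 0.45.

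Apom was read at chr17:35267047-35267106. In WT its log2 signal ran from 15.34 over a median of 15.63 to 15.96 on CTRL, and from 14.95 over 15.33 to 16.12 on HFD. In LKO it ran from 14.75 over 15.49 to 15.77 on CTRL, and from 14.77 over 15.11 to 15.38 on HFD. KO livers ran from 15.27 over 15.51 to 15.93 on CTRL, and from 15.45 over 15.66 to 15.82 on HFD. On HFD every KO liver was above every LKO liver, while WT livers spread across both.

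Apom fell with HFD in LKO by 0.47 on the log2 scale (SE 0.10, adjusted p = 7.03e-04) and in WT by 0.37 (SE 0.12, adjusted p = 0.0186), and in KO the change was 0.14 (SE 0.10, adjusted p = 0.347). The response in KO differed from that in LKO by 0.60 (SE 0.14, adjusted p = 0.011) and from that in WT by 0.51 (SE 0.15, adjusted p = 0.0214). The difference from LKO passed in 10 of 15 alternatives, with values from 0.42 to 0.80, and that from WT in 7 of 15, with values from 0.23 to 0.75. Without array weights they were 0.42 (adjusted p = 0.428) and 0.34 (adjusted p = 0.287), and within neither wash batch did either pass. On HFD, KO exceeded LKO by 0.60 (SE 0.09, adjusted p = 1.76e-06) and WT by 0.35 (SE 0.10, adjusted p = 0.00426), of which the first passed in 15 of 15 alternatives and the second in 10, with 0.17 with the 75th percentile (adjusted p = 0.24) and a lowest value of 0.14. On CTRL the genotypes differed by at most 0.16 in size and none of the 3 comparisons passed. LKO against WT on HFD gave -0.26 (adjusted p = 0.0559), which passed without replicate 1, 2, 3 or 4 of LKO on HFD (-0.28, -0.28, -0.28 and -0.29), replicate 3 or 6 of WT on HFD (-0.33 and -0.28), replicate 1 of LKO on CTRL (-0.26) or replicate 8 of KO on CTRL (-0.26). The WT response was lost without replicate 3, 7 or 8 of WT on HFD (-0.30, -0.33 and -0.34). Without array weights the responses of Apom were -0.25 in WT and -0.33 in LKO, and neither passed (adjusted p = 0.237 and 0.196).

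Apob, the non-exchangeable protein of very low and low density lipoprotein, was read at chr12:8012697-8012756. In WT its log2 signal ran from 15.31 over a median of 15.70 to 15.88 on CTRL, and from 15.48 over 15.68 to 15.84 on HFD. LKO livers ran from 15.26 over 15.52 to 15.74 on CTRL, and from 15.43 over 15.87 to 16.09 on HFD. The KO values ran from 15.46 over 15.56 to 15.85 on CTRL, and from 15.24 over 15.58 to 15.87 on HFD. LKO on HFD had the highest mean, 1.06 pooled SD above WT on HFD, and the other neighbouring groups differed by less than 1 pooled SD and all overlapped.

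Apob rose with HFD in LKO by 0.32 (SE 0.08, adjusted p = 0.003), with 0.02 in WT and -0.12 in KO, neither of which passed. On HFD it was lower in KO than in LKO by 0.36 on the log2 scale (SE 0.08, adjusted p = 2.44e-04), and the mean of both Apob probes gave -0.23 (adjusted p = 0.00116). The diet responses of KO and LKO differed by -0.44 (SE 0.11, adjusted p = 0.0213), a call that passed in 8 of 15 alternatives, with values from -0.50 to -0.28, and was lost without replicate 7 or 8 of KO on HFD (-0.38 and -0.40), replicate 6 of LKO on HFD (-0.43) or replicate 8 of LKO on CTRL (-0.39). With median centring the LKO response of Apob was 0.15 and did not pass (adjusted p = 0.173), and within the first and the second wash batch it was 0.45 (adjusted p = 0.0133) and 0.24 (adjusted p = 0.24). A dimmer Apob probe, at chr12:7992933-7994547, rose with HFD in LKO by 0.25 (adjusted p = 5.93e-04, passing in 10 of 14 alternatives with a lowest value of 0.10), but for it KO and LKO on HFD differed by -0.10 (adjusted p = 0.103), passing only without replicate 5 of KO on HFD (-0.13, adjusted p = 0.0455).

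Apoe, the ligand of lipoprotein receptors that macrophages also make, and Apoc1, an inhibitor of that uptake, were on the brightest probes of the set together with Apoa2. Their brightest probes lie at chr7:20281732-20281791 for Apoe, chr7:20274856-20274915 for Apoc1 and chr1:173156445-173156504 for Apoa2. Among 33323 probes their ranks by signal stayed between 5 and 15 for Apoe, 2 and 7 for Apoc1, and 4 and 19 for Apoa2 over the 48 arrays. Quantile normalization assigns the same value to the same rank, and the SD over arrays was 0.035 for Apoe, 0.041 for Apoc1 and 0.040 for Apoa2, against 0.193, 0.202 and 0.170 before normalization and 0.255, 0.263 and 0.235 after median centring. Changes between groups with quantile normalization were at most 0.04 in size for each of the 3 and passed in 0 of the 9 comparisons between 2 groups.

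With median centring the same probes fell with HFD in KO, by 0.31 for Apoe, 0.29 for Apoc1 and 0.29 for Apoa2 on the log2 scale (limma, adjusted p = 4.44e-04, 6.44e-04 and 5.45e-04). The 399 probes of other genes with a mean signal of at least 16 moved the same way: their median change with HFD in KO was 0.07 with quantile normalization, -0.15 with median centring and -0.22 with the 75th percentile. For KO against WT on HFD it was 0.03, -0.17 and -0.23. Over all tested probes no scaling moved the median of any comparison by more than 0.1. For these 3 genes the size of the change and whether it passed thus depended on the scaling. The dimmer Apoe probe, at chr7:20281578-20281627, rose with HFD by 0.26 in LKO (adjusted p = 4.99e-04) and by 0.27 in KO (adjusted p = 3.51e-04) with quantile normalization, and these became 0.10 (adjusted p = 0.155) and -0.02 with median centring. The LKO value passed in 9 of the 14 alternatives that could be fitted for this probe.

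**Figure D3:**
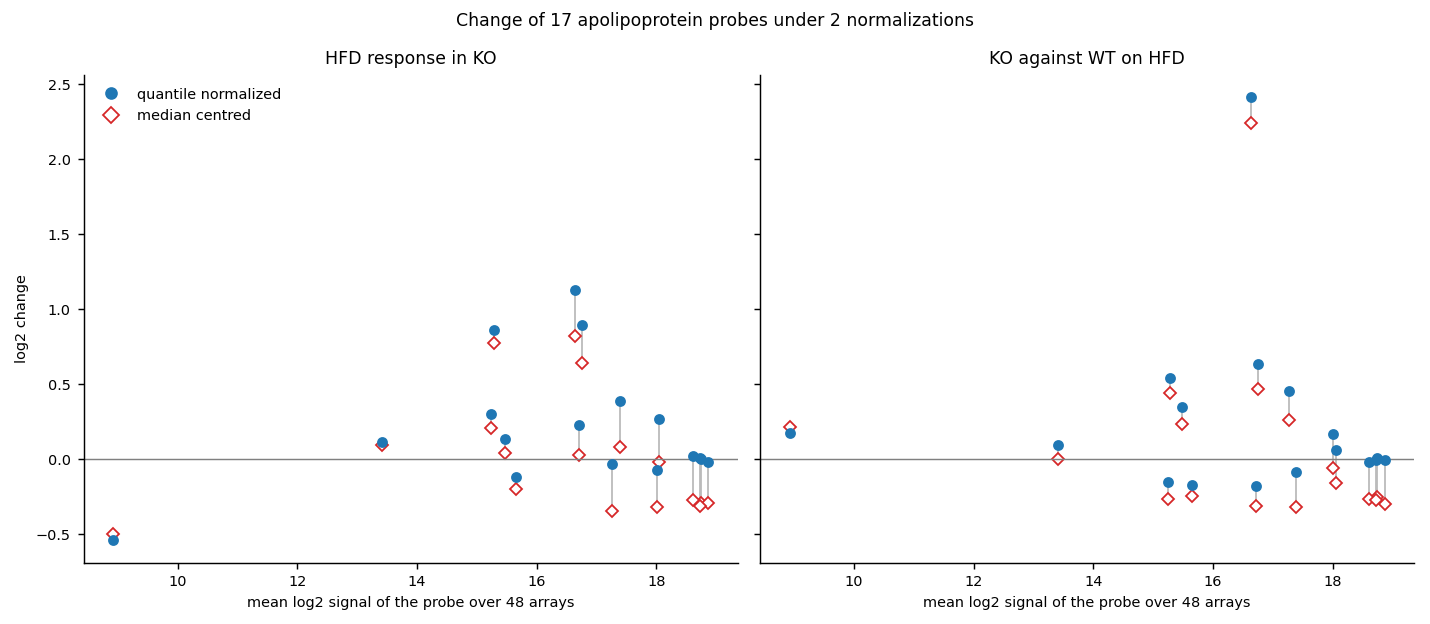
Log2 change (vertical axis) of the 17 probes against their mean log2 signal over 48 arrays (horizontal axis), for HFD in KO and for KO against WT on HFD, with quantile normalization (filled circles) and with median centring (open diamonds), grey lines joining the values of a probe. The 4 brightest probes, of Apoc1, Apoa2 and Apoe, lie near 0 in the first scaling and lower in the other, while Apoa4 and Apoc2 stay above 0 in both.

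Counted over the 10 genes by their brightest probes, HFD changed 1 gene in WT, where 18.7% of the 33323 probes passed the test, 4 in LKO, where 20.2% passed, and 4 in KO, where 24.8% passed. The LKO genes were Apoa4, Apoc2 and Apob, which rose, and Apom, which fell, and the KO genes were Apoa4, Apoc2, Apoa5 and Apoa1, all of which rose. The median change of the 10 genes was -0.003 in WT, 0.004 in LKO and 0.071 in KO, against -0.011, -0.013 and -0.018 over all probes. Over the 399 probes of other genes with a mean signal of at least 16 it was -0.002, 0.014 and 0.074, so the median in KO was near that of other bright probes. Without array weights the LKO count was 1 and the share of all probes 3.81%. Other scalings changed the directions: with median centring 1 of 4 called genes rose in LKO and 2 of 6 in KO, and with the 75th percentile 2 of 5 and 2 of 7.

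KO and WT differed in 4 of 10 genes on CTRL, with 34.2% of all probes passing, and in 5 on HFD, with 45.7%. LKO and WT differed in 5 genes on CTRL, with 24.7% of all probes passing, and in 4 on HFD, with 26.7%. By their brightest probes, KO and LKO differed in 3 genes on CTRL, all lower in KO, with 25.2% of all probes passing. On HFD they differed in 4, with 30.6%. Each call is 10% of the 10 genes, so these shares are coarse, and 1 of the 5 calls for LKO against WT on CTRL had an adjusted p of 0.05. Over all 17 probes, 7 passed for KO against LKO on CTRL, and 2 of these were higher in KO. Those 2 were the dimmer Apoc3 probes, with 0.24 (adjusted p = 5.97e-04) and 0.56 (adjusted p = 1.24e-05), passing in 13 and 14 of 14 alternatives. On HFD the same probes gave 0.27 (adjusted p = 2.69e-05) and 0.20 (adjusted p = 0.0716). The brightest Apoc3 probe gave 0.06 on CTRL and 0.04 on HFD, and neither passed. Apoa4 and Apoc3 exceeded WT, and Apoa1 was below WT, in both knockouts on both diets, although the sign of Apoc3 on HFD turned with median centring and the LKO calls of Apoa1 and Apoc3 passed in 7 to 10 of 15 alternatives. With median centring, and likewise with the 75th percentile, 8 genes differed between KO and WT on HFD, of which 2 were higher in KO, and 2 genes of 4 and of 6 were higher in LKO than in WT on HFD. For LKO against WT on CTRL, 2 of 2 and 2 of 3 were higher.

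The diet response differed between LKO and WT in 0 of 10 genes, where 10.4% of all probes passed. Of the 17 probes 1 passed for that difference, the dimmer Apob probe (0.24, adjusted p = 0.0444), and it passed in 4 of the 14 alternatives that could be fitted for it. The response differed between KO and WT in 4 genes, with 14.3% of all probes passing, and between KO and LKO in 3, with 3.42%. The first 4 were Apoc2, Apom, Apoa5 and Apoa1, all with the higher change in KO, and the 3 were Apom and Apoa5, higher in KO, and Apob, lower in KO. With either other scaling, 1 of the 5 genes called for KO against WT had the higher change in KO, and 1 gene was called for KO against LKO. Of the 41 calls over all comparisons, 10 passed under each of 15 alternative ways of processing and in each of 48 fits that left out 1 liver, and 36 kept their sign in all 15 alternatives. The 10 were Apoc2 for HFD in KO and for KO against WT on HFD, Apoa4 for KO against WT on both diets and for LKO against WT on HFD, Apoa1 for KO against WT on CTRL, Apoa5 for KO against WT and against LKO on CTRL, and Apob and Apom for KO against LKO on HFD. All are calls of the brightest probe, and the dimmer Apob probe did not pass for its comparison (-0.10, adjusted p = 0.103).

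**Figure D4:**
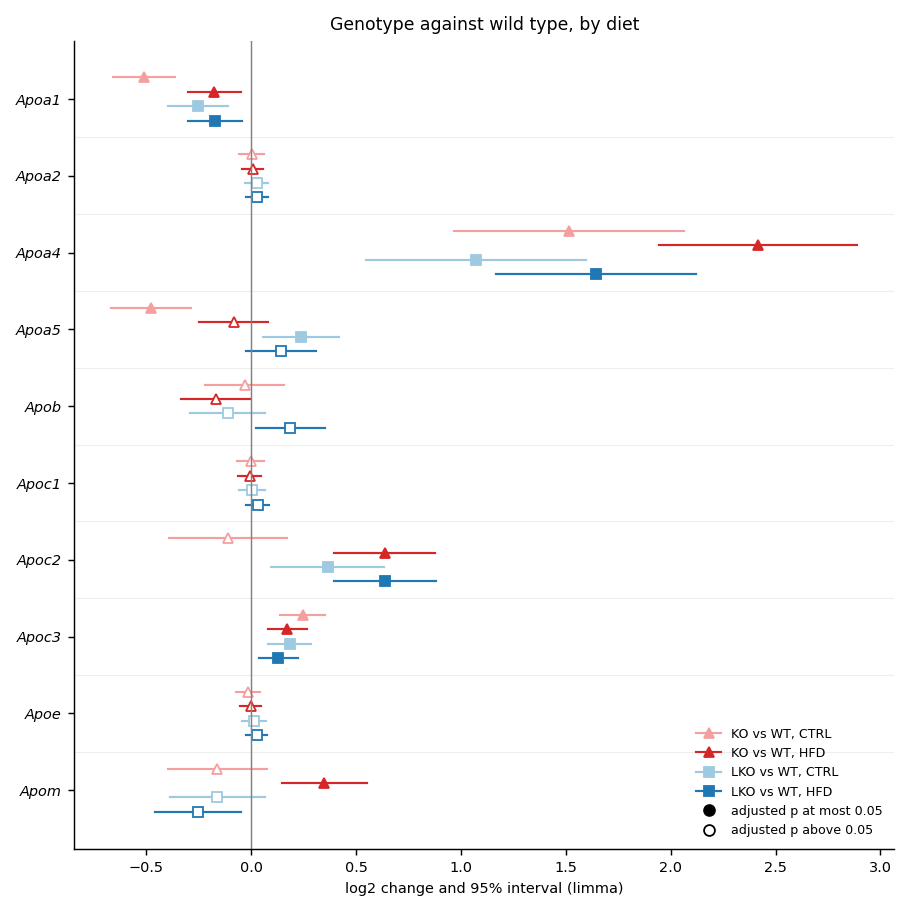
Log2 change against WT (horizontal axis) with its 95% interval from limma, for the brightest probe of each gene in KO (triangles) and LKO (squares) on CTRL (pale) and HFD (dark). Filled symbols have an adjusted p of at most 0.05. Apoa4 lay between 1.07 and 2.42 in all 4 comparisons, and Apoa1 and Apoa5 in KO on CTRL lay near -0.5.

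Some of the genes are neighbours in the genome. Apoa1, Apoc3, Apoa4 and Apoa5 lie next to each other on chromosome 9, and in KO against WT on CTRL the differences were -0.51, 0.25, 1.52 and -0.48, all of which passed. With HFD in KO, Apoa1, Apoa4 and Apoa5 rose by 0.23, 1.12 and 0.39, and Apoc3 gave -0.07, which did not pass. The rises of Apoa1 and Apoa5 depended on the scaling and were -0.05 and -0.01 with the 75th percentile. For Apoa4 the lowest value in 15 alternatives was 0.75. Apoc2, Apoc1 and Apoe lie together on chromosome 7, and with HFD in KO they gave 0.90, -0.02 and 0.005, where the last 2 are the probes held by the normalization.

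Livers of the same group also varied together in some genes. After the group mean and the wash batch were taken out, Pearson r over the 48 livers was 0.77 between Apoa4 and Apoc2, 0.57 between Apoc1 and Apoc3 and 0.48 between Apoa5 and Apoc3. For Apom, r ran from -0.59 with Apoa4, -0.53 with Apoe and -0.50 with Apoa2 to -0.15 with Apoa5, and it was 0.37 with Apoa1. These are descriptions over arrays that share their normalization, and the values of Apoe, Apoa2 and Apoc1 span a few hundredths of a log2 unit.

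**Figure D5:**
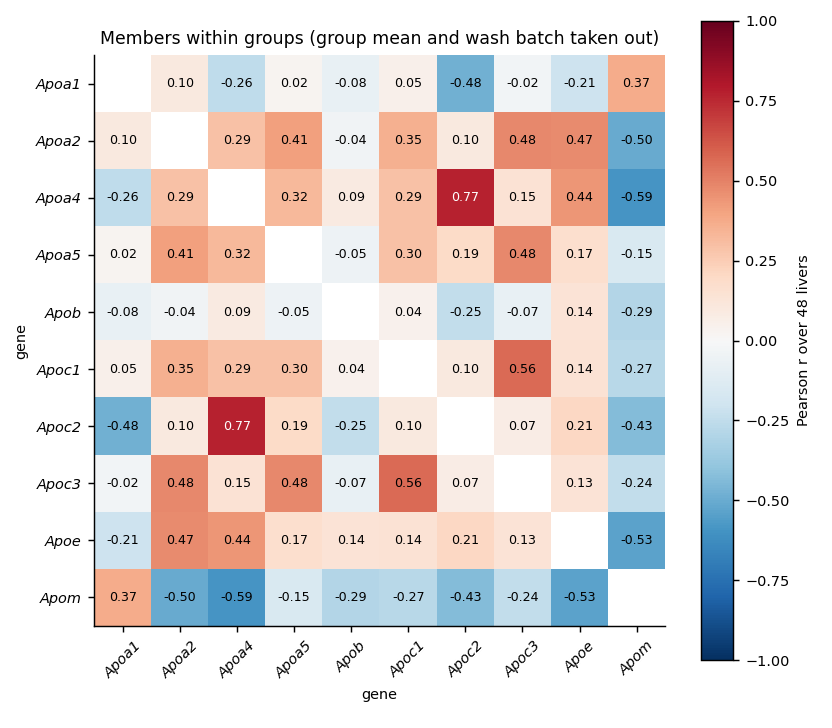
Pearson r between the brightest probes of each pair of the 10 genes over 48 livers, after the group mean and the wash batch were taken out (colour scale from -1 to 1, gene names on both axes). The highest value is 0.77 for Apoa4 with Apoc2 and the lowest is -0.59 for Apoa4 with Apom.

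Among 21913 genes, those most like each member over all 48 arrays, with the wash batch taken out and group differences kept, were named by Pearson r as a description. Apoa4 was closest to a long intergenic RNA probe on chromosome 19 (r = 0.993), to a transcript named only by its identifier (0.93) and to Gm10680 (0.908), whose probe lies 435 bases from that of Apoa4 and on the other strand. The chromosome 19 probe gave 1.69 for KO against WT on CTRL and 2.73 on HFD, beside 1.52 and 2.42 for Apoa4. Apoc2 was closest to Cntnap1 (0.911), Cd99 (0.902) and Sptan1 (0.886), and Apom to Huwe1 (0.869), F10 (0.848) and Ctrc (0.842). Apoa1 was closest to Mex3c (0.78), Apoa5 to Sdhd (0.772), Apoc3 to Thnsl2 (0.796) and Apob to Gm38947 (0.737).

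Other genes of lipoprotein metabolism were counted from lists of textbook roles. Of 15 assembly and secretion genes, 1 was higher and 3 lower in KO than in WT on CTRL, where 34.2% of all probes passed in either direction, and 5 were higher and 4 lower on HFD, where 45.7% passed. Sort1, a sorting receptor that binds Apob, was lower by 1.33 in LKO than in WT on CTRL (SE 0.19, adjusted p = 1.18e-06) and by 1.22 in KO than in WT on HFD on the log2 scale (SE 0.17, adjusted p = 1.11e-07). Mttp, which loads lipid onto Apob and was picked after its values were seen, passed in 1 of the 9 comparisons, a fall with HFD in LKO by 0.31 (adjusted p = 0.00439).

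Of 11 tested genes of triglyceride clearance, 3 were higher and 7 lower in KO than in WT on HFD, against 45.7% of all probes. Lpl, the lipase that Apoc2 activates, was higher by 2.60 in KO (SE 0.33, adjusted p = 1.22e-08) and by 1.83 in LKO (SE 0.33, adjusted p = 5.39e-05) than in WT on HFD. Fgf21, a liver hormone that PPARa induces, was lower by 3.57 in KO than in WT on CTRL on the log2 scale (SE 0.43, adjusted p = 5.59e-09). Of 17 receptor genes, 7 were higher and 4 lower in KO than in WT on HFD, against the same 45.7%. Vldlr, a receptor for triglyceride-rich particles, was higher by 3.27 in KO than in WT on CTRL (SE 0.29, adjusted p = 1.16e-12).

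Of 14 HDL genes, 6 were higher and 6 lower in KO than in WT on HFD, where 45.7% of all probes passed. Pltp, which transfers phospholipid to HDL, fell with HFD in LKO (-1.81, SE 0.21, adjusted p = 9.58e-08). Of 21 regulators of apolipoprotein genes, 2 were higher and 8 lower in each knockout than in WT on CTRL, against 34.2% of all probes in KO and 24.7% in LKO. Nr1d1, a repressor of the circadian clock, was lower by 1.63 in LKO than in WT on CTRL (SE 0.30, adjusted p = 7.66e-05). Of 15 further apolipoproteins tested, 6 were higher and 1 lower in KO than in WT on HFD, near the 45.7% of all probes. Saa3, an acute-phase protein, was higher by 1.30 in KO than in WT on CTRL (SE 0.49, adjusted p = 0.0354). Of 30 PPARa target genes, 4 were higher and 17 lower in KO than in WT on CTRL, and 1 higher and 21 lower on HFD, against 34.2% and 45.7% of all probes.

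Markers of other cell types also differed between the groups. Of 12 Kupffer cell or macrophage markers, 11 were higher and 0 lower in KO than in WT on HFD, where 45.7% of all probes passed, and 10 rose with HFD in KO, where 24.8% passed. Their summed log2 level ran from 14.79 over a median of 15.19 to 16.41 in WT on CTRL and from 14.27 over 15.32 to 16.74 on HFD, from 15.53 over 15.74 to 17.15 and from 15.75 over 16.21 to 16.76 in LKO, and from 15.17 over 15.81 to 16.81 and from 15.97 over 16.67 to 17 in KO. Of 6 stellate cell markers, 6 were higher in KO than in WT on HFD, with medians of the summed level of 15.81 and 14.52. White adipocyte markers, 4 of 6 tested, had a median summed level of 14.35 in WT on HFD, with livers from 10.35 to 15.55, and of 10.31 to 11 in the other groups. With HFD in WT 1 of the 4 rose and 0 fell, where 18.7% of all probes passed, and their median change was 0.285. A summed level can be carried by 1 gene, and Adipoq and Plin1 were not well above background in enough arrays to be tested. The part of these cells in the apolipoprotein values was not tested. For enterocytes, the main source of Apoa4, 8 of 10 markers including Alpi, Lct, Sis and Cdx2 were not well above background in enough arrays to be tested, and the remaining Fabp2 and Vil1 had summed medians from 14.64 to 15.73.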

How the data were processed

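Total RNA from 48 mouse livers was hybridised singly to Agilent SurePrint G3 Mouse 8x60K arrays with a single dye, 8 mice per group, on 6 slides and in 2 wash batches. The authors deposited scanner files of spot intensity, made with Agilent Feature Extraction 10.10.1.1, and a table of log2 values for the same arrays; per the study's methods, log2 median signals were filtered, corrected for the wash batch and quantile normalized. Here the log2 median intensity was taken, outlier spots were left out, spots of a probe were averaged, and, from 59305 spots that were not controls, the 33323 probes that stood well above background on 4 or more arrays of any group were quantile normalized. The deposited log2 values correlated with these at r of 0.999 to 1 per array over 32815 shared probes. Group means with the wash batch as a term and array weights (0.189 to 2.53) were fitted in limma 3.58.1 (R 4.3.3) over all groups, with Benjamini-Hochberg adjustment within each comparison. Array number limits the precision. The fit was tested on simulated data.

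The genes and lists were chosen with earlier results of these data known. From each list of other genes, the called gene with the largest change in each direction per comparison could be named, with the 3 genes most alike for each member. Group levels are unweighted, whereas changes are weighted. There were 15 alternatives, of which median centring without array weights was chosen after seeing the data, and 48 fits without 1 liver each. Probe positions are on mm9. Promoter windows came from RefSeq on GRCm38.p6.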

Additional observations from a re-analysis of the deposited data

Results flagged for a closer look

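In 102 groups of 8 values, 8 had an end value whose gap to its neighbour, as a share of the group's range, passed the 95% critical value of Dixon's test, and chance gives about 1 in 20. Replicate 1 of LKO on CTRL was low for Apom (0.574) and for both brighter Apoc3 probes (0.602 and 0.579). Without this liver the LKO against WT change of Apoc2 on CTRL was 0.35 (adjusted p = 0.0502), that of Apom on HFD -0.26 (adjusted p = 0.0499). The dimmer Apob probe stood apart in replicate 6 of LKO on HFD (0.547). The other gaps were of probes held by the normalization to a span of hundredths of a log2 unit: Apoa2 in replicate 8 of LKO on HFD (0.625) and replicate 6 of KO on CTRL (0.592), and Apoc1 in replicate 8 of WT on CTRL and replicate 7 of LKO on CTRL (0.998 in each).

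Diet responses differed between genotypes by limma's interaction test in 10 probe comparisons. KO minus WT was 0.7476 and 0.7426 for the Apoc2 probes, 0.5094 for Apom, 0.3925 for Apoa5, 0.3372 for Apoa1 and -0.489 for the dimmest Apoc3 probe. KO minus LKO was 0.6031 for Apom, 0.4863 for Apoa5 and -0.4374 for Apob. LKO minus WT was 0.2372 for the dimmer Apob probe.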

How the results depend on the processing

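Values below are log2 changes from limma and counts of the 10 genes, and no cause was tested. Median centring turned the sign of Apoa2 (-0.2936, its other probe -0.269) and Apoe (-0.309, other probe -0.01559) for HFD in KO, of Apoa2 (-0.2491), Apoc3 (-0.05936) and the dimmer Apoe probe (-0.1595) for KO against WT on HFD, of Apoc3 (-0.02484) and the dimmer Apoe probe (-0.01811) for LKO against WT on HFD, and of Apoa2 (-0.2889) and Apoe (-0.294) for the KO minus WT response. The 75th percentile turned Apoa1 (-0.0486), Apoa2 (-0.3642 and -0.351), Apoa5 (-0.01034) and Apoe (-0.3857 and -0.09451) for HFD in KO, Apoa2 (-0.3159), Apoc3 (-0.1336) and the dimmer Apoe probe (-0.2295) for KO against WT on HFD, Apoc1 (-0.2109), Apoc3 (-0.07852 and -0.02361) and Apoe (-0.1895 and -0.05117) for LKO against WT on HFD, and Apoa2 (-0.3615), Apoa5 (-0.01213) and Apoe (-0.401) for the KO minus WT response. Median centring without array weights turned Apoa2 (-0.2626) and Apoe (-0.2714) for HFD in KO and Apoa2 (-0.214) for KO against WT on HFD.

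Counts moved by over 1.5 times as follows. With median centring they were 2 for LKO against WT on CTRL, 8 for KO against WT on HFD and 1 for KO minus LKO. With the 75th percentile they were 0 for HFD in WT, 7 for HFD in KO, 3 for LKO against WT on CTRL, 8 for KO against WT on HFD and 1 for KO minus LKO. Without array weights they were 0, 1, 2, 3, 2 and 0 for HFD in WT, HFD in LKO, LKO against WT on CTRL, KO against WT on HFD, KO minus WT and KO minus LKO. Without a filter they were 0, 2, 3, 2, 2 and 1 for HFD in WT, HFD in LKO, LKO against WT on CTRL, LKO against WT on HFD, KO minus WT and KO minus LKO. Without the wash term both HFD in LKO and LKO against WT on HFD gave 2. With the slide as a block LKO against WT on CTRL gave 3. Within the first wash batch the counts were 0 for HFD in WT, 2 for HFD in LKO, 2 for HFD in KO, 0 for LKO against WT on CTRL, 3 for KO against WT on HFD, 2 for LKO against WT on HFD, 1 for LKO minus WT, 0 for KO minus WT and 0 for KO minus LKO. Within the second they were 0 for HFD in WT, 1 for HFD in LKO, 2 for HFD in KO, 1 for LKO against WT on CTRL, 2 for LKO against WT on HFD, 2 for KO against LKO on HFD, 1 for KO minus WT and 0 for KO minus LKO. With the mean of a gene's probes LKO minus WT gave 1. With median centring and no array weights they were 0, 0, 1, 2, 1 and 0 for HFD in WT, HFD in LKO, LKO against WT on CTRL, LKO against WT on HFD, KO minus WT and KO minus LKO.

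With 1 liver left out, counts ran from 0 to 1 for HFD in WT, 3 to 4 in LKO and 4 to 4 in KO, from 4 to 4, 3 to 5 and 3 to 3 for KO against WT, LKO against WT and KO against LKO on CTRL, from 4 to 6, 2 to 6 and 3 to 4 for the same on HFD, and from 0 to 0, 3 to 5 and 2 to 4 for LKO minus WT, KO minus WT and KO minus LKO. Replicate numbers are shared by the groups, but deviations of same-numbered livers correlated at r from -0.452 to 0.694, so they were not treated as paired. With a replicate block, LKO against WT on CTRL gave 3 and the other counts stayed within 1.5 times their values.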
